A study of Drosophila melanogaster with 6 samples.

Results

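The cuticle protein genes described here are 80 genes of Drosophila melanogaster, of 11982 genes that the arrays read through a probeset with 1 gene symbol. They were chosen by symbol: symbols that start with Cpr, Lcp or Ccp84A, and Edg78E, Edg84A, Pcp and Acp65Aa. The rule uses no values, but it was set with earlier results of these data known. Each gene was represented by the brightest of its probesets (a probeset is a set of short probes that reads a transcript) over 6 arrays. A further 6 probesets, which read a cuticle protein gene together with another gene, belong to no member and are given only beside members.

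RNA of whole female larvae of the third instar was hybridised to 6 Affymetrix Drosophila Genome 2.0 arrays, 1 array for each pool of 50 larvae. The 3 mutant pools had the genotype roX1SMC17ADf(1)52 with the transgene [w+4D4.3] and are mutant for roX1 and roX2, which encode noncoding RNAs that act with the dosage compensation complex on the male X chromosome. The 3 control pools carried the same mutations and the same [w+4D4.3], and in addition [hsp83-roX1+], by its name roX1 under the hsp83 promoter, so the controls too are mutant at both endogenous roX genes. The labels give no insertion sites and no age within the instar, and roX1 itself was not analysed here, which leaves the labels without that check.

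The larval cuticle is made by the epidermis as layers of chitin fibres embedded in protein, and most of these proteins carry the Rebers-Riddiford domain, which binds chitin. One large class of the family is found mainly in soft, flexible cuticle such as the larval body wall, and another mainly in hard cuticle. Many of the genes lie in tandem clusters and are switched on in bursts around each moult, so that larval, pupal and adult cuticles are built from different sets. Symbols of the form Cpr65Av carry the cytological position, so 65A, 47E, 49A, 67F and 84A below are gene clusters named after it.

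All values are log2 RMA expression values, and a difference is the mutant mean minus the control mean on this log2 scale. Pearson correlations over all probesets ran from 0.9904 to 0.9976 for arrays of one genotype, and from 0.9904 to 0.9959 for arrays of different genotypes. The dimmest 40% of probesets were left out of the tests, which kept 62 of the 80 genes and left 18 untested. Lsp2, a larval serum protein gene of the fat body, lay between 14.12 and 14.2 on the 6 arrays, and the salivary glue gene Sgs3 between 14.02 and 14.21. In RNA of whole larvae, fewer cells of a type and less RNA per cell cannot be told apart. Brightness depends on the probes, so it does not rank transcripts of different genes.

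One cuticle protein gene rose in the mutant, and 4 others had non-overlapping groups without passing the test, among them Cpr67Fa1 and Cpr67Fb of the 67F cluster, whose differences had opposite signs. Cpr67B rose 1.51-fold, and the other 61 tested genes were not called. That is 1 of 62, beside 0.529% of all 8882 tested genes (limma, Benjamini-Hochberg adjusted p under 0.05 over all 11262 tested probesets). By direction, 0.372% of all tested genes were called higher and 0.158% lower, and of all probesets 0.551% were called, 0.355% higher and 0.195% lower. At an unadjusted p under 0.05 there were 5 of 62 (8.06%), beside 9.05% of all tested genes. For 5 of 62 genes (8.06%) no mutant value lay within the range of the controls or the reverse, beside 16.3% of all tested genes. Of these 5, 4 were higher in mutants, where the background was 7.23%, and 1 was lower, where it was 9.09%. These shares are near or below the background, apart from the single call. The median difference of the 62 genes was 0.047, beside -0.0048 over all tested genes, with 38 values above 0 and 24 below. It was -0.032 with array weights and 0.15 over the 32 members left by a stricter filter.

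**Figure D1:**
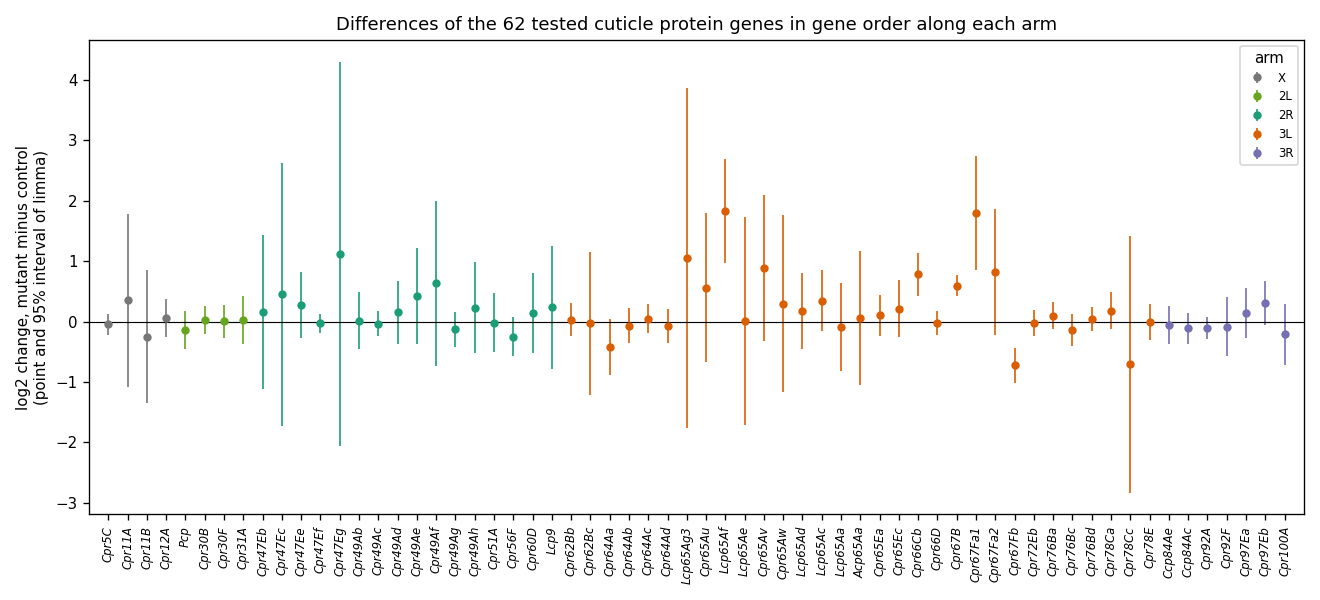
Difference between mutant and control for each of the 62 tested cuticle protein genes. The vertical axis is the log2 change, mutant minus control, with the point and the 95% interval from limma, and the horizontal axis lists genes in their order along each chromosome arm, coloured by arm. The interval of Cpr67B is narrow and above 0, while those of Cpr47Eg, Lcp65Ag3 and Cpr78Cc span several log2 units on both sides of 0.

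Cpr67B, a gene of the Rebers-Riddiford family on the left arm of chromosome 3 (3L), read 12.01, 11.98 and 12.08 in the mutant pools and 11.49, 11.39 and 11.4 in the control pools. The 3 mutant values were above all control values, and the pools of each group lay close together. The difference was 0.59 (SE 0.07, 95% interval from 0.42 to 0.77; limma adjusted p = 0.025). Its pooled within-group standard deviation (SD), 0.055, was among the smallest of the tested members, whose median was 0.296. The call was lost without mutant replicate 1, 2 or 3 and without control replicate 2 or 3, with limma adjusted p-values from 0.103 to 0.161, while the difference stayed between 0.56 and 0.63. It held without control replicate 1 (limma adjusted p = 0.0279). With the replicate number as a block it was also lost (limma adjusted p = 0.114).

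The 67F cluster holds Cpr67Fa1 and Cpr67Fa2, direct neighbours in the RefSeq gene order and close copies by name, and Cpr67Fb with 1 gene between. Cpr67Fa1 read 6.72, 7.24 and 8.3 in the mutant pools and 5.23, 5.74 and 5.89 in the control pools. The groups did not overlap, and the mutant pools were spread more widely than the controls. The difference of 1.79 (SE 0.39, 95% interval from 0.86 to 2.73) did not pass (limma adjusted p = 0.188).

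Cpr67Fa2 read 8.72, 9.13 and 10.2 in the mutant pools and 7.83, 8.78 and 8.98 in the control pools. Here mutant replicate 1 lay below 2 of the control pools. The difference was 0.82 with a 95% interval from -0.23 to 1.86 (limma adjusted p = 0.641). A probeset shared by Cpr67Fa1 and Cpr67Fa2 read 8.61, 9.06 and 10.21 in mutants and 6.87, 8.05 and 8.37 in controls, a difference of 1.53 that did not pass either (limma adjusted p = 0.446). All 3 probesets were highest in mutant replicate 3 and lowest in control replicate 1. The copies may share hybridisation, which was not tested.

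Cpr67Fb, in contrast, read lower in the mutant pools, at 4.89, 5.15 and 4.95 against 5.51, 5.89 and 5.75. The groups did not overlap and the pools within each group were close. The difference of -0.72 (SE 0.12, 95% interval from -1.01 to -0.43) did not pass (limma adjusted p = 0.0878), and passed when control replicate 1 was left out (-0.82, limma adjusted p = 0.0326, with a range from 0.0177 to 0.307 over all alternatives). The RefSeq table places this gene within the span of an antisense RNA gene, asRNA:CR45171, and which transcript the probeset reads was not tested.

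Lcp65Af, a larval cuticle protein gene of the 65A cluster, read 6.63, 7.69 and 6.51 in the mutant pools and 4.6, 5.54 and 5.2 in the control pools. Each mutant pool was above each control pool, with control replicate 1 lowest. The difference of 1.83 (SE 0.36, 95% interval from 0.97 to 2.7) was the largest among the members and did not pass (limma adjusted p = 0.139).

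Cpr66Cb, alone at its cytological position among the members, read 7.5, 7.13 and 6.98 in mutants and 6.57, 6.38 and 6.31 in controls. The groups did not overlap. The difference of 0.78 (SE 0.15, 95% interval from 0.43 to 1.14) did not pass (limma adjusted p = 0.121).

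All 5 genes with non-overlapping groups lie on 3L, the arm that holds 40 of the 80 genes and 31 of the 62 tested. Over all 1764 tested genes of 3L the groups did not overlap for 20.8%, so the arm as a whole stands above the 16.3% of all arms. By limma adjusted p under 0.05, 28 of those 1764 genes were called (1.59%), beside 0.529% of all tested genes. The members of 3L gave 1 call among 31 tested, Cpr67B. When limma gave each array a weight by its agreement with the fit, the 5 members with non-overlapping groups were called, of 62 tested. The calls over all 11262 tested probesets then grew from 62 to 232. The largest limma adjusted p of the 5 was then 0.0493, for Cpr67Fa1, whose range over all alternatives was 0.0493 to 0.551. The 5 differences kept their signs in every alternative listed for single genes in which they were tested.

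**Figure D2:**
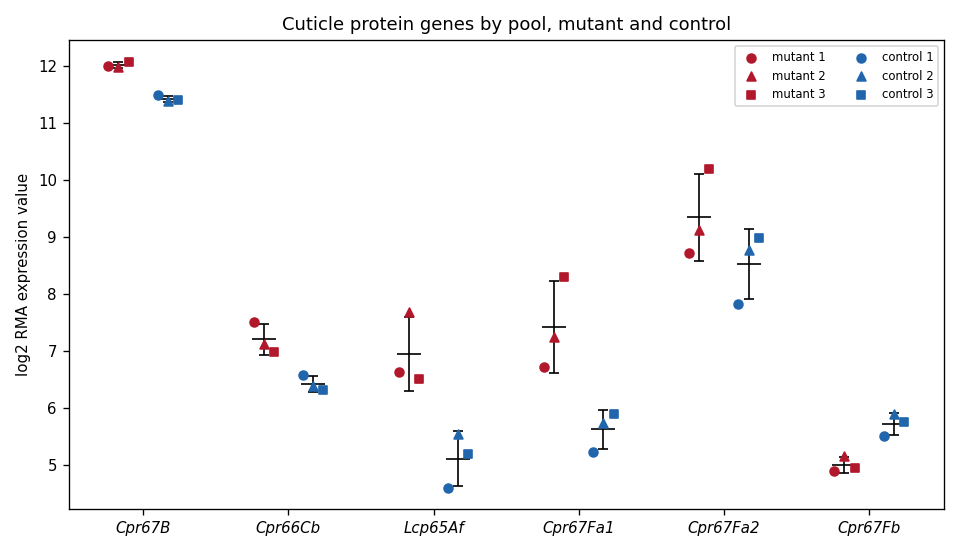
Log2 RMA expression value (vertical axis) of 6 cuticle protein genes in each pool, with mutant pools in red, control pools in blue and a marker shape for each replicate number; black bars are the group mean and SD (n = 3). The groups are apart for Cpr67B, Cpr66Cb, Lcp65Af, Cpr67Fa1 and, in the other direction, Cpr67Fb, and overlap for Cpr67Fa2.

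The cuticle protein genes varied more between pools of one genotype than most genes did. The pooled within-group SD had a median of 0.296 over the 62 tested genes and quartiles of 0.161 and 0.659, beside 0.127, 0.0893 and 0.184 over all tested genes. It exceeded 0.5 for 19 of 62 genes (30.6%), beside 3.72% of all tested genes. From the lowest to the highest of the 6 pools, 24 of the 62 genes (38.7%) spanned more than 2-fold, beside 7.05% of all tested genes. This span runs over both genotypes, so it also takes in differences between them, and 3 of the 24 genes had non-overlapping groups. Leaving out 1 array at a time left between 18 and 24 members spanning more than 2-fold (29% to 38.7%), beside 4.08% to 6.76% of all genes. Of the smaller gene lists described further on, some had similar or larger spreads by 1 of these measures, and others had smaller ones. The median pooled SD was 0.323 over 11 muscle genes and 0.241 over 9 tanning genes. It was 0.177 over 16 Tweedle genes and 0.0864 over 9 salivary gland genes. Spans of more than 2-fold were found for 3 of 4 gut, 4 of 9 tanning (44.4%), 2 of 5 hemocyte and 3 of 9 salivary gland genes (33.3%). The count was 3 of 16 for Tweedle (18.8%) and 2 of 11 for muscle genes (18.2%). These are descriptions of the same 6 arrays, with no test.

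**Figure D3:**
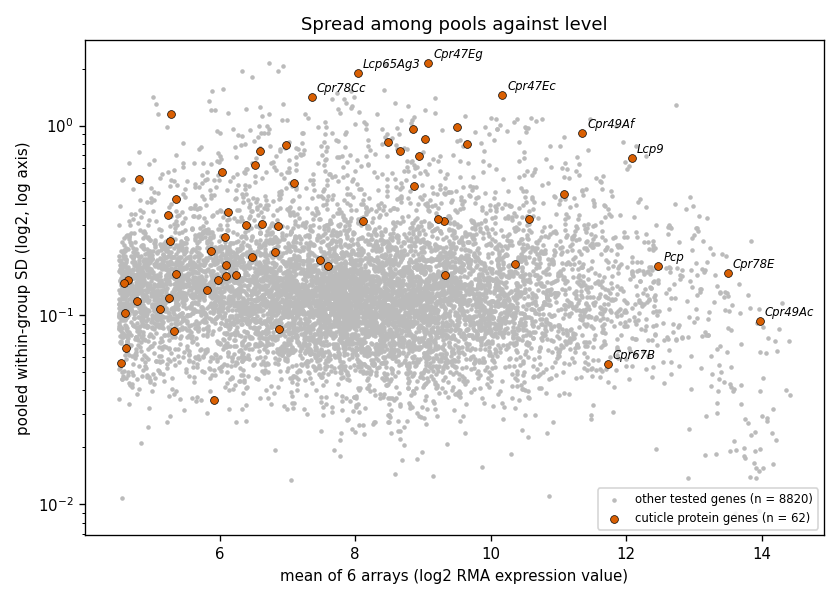
Pooled within-group SD on a log axis (vertical) against the mean of the 6 arrays (horizontal) for the 62 tested cuticle protein genes (orange) and the 8820 other tested genes (grey). Cpr47Eg, Lcp65Ag3, Cpr78Cc and Cpr47Ec lie near the upper edge of all genes, and Cpr67B and Cpr49Ac in the lower part.

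The spread followed a few pools. Of the 24 genes that spanned more than 2-fold, 12 were lowest in control replicate 1 and 9 in mutant replicate 1, and 17 were highest in mutant replicate 3. Among the 626 such genes of the whole array, control replicate 1 was lowest for 63.6%, mutant replicate 1 for 6.71% and mutant replicate 3 highest for 29.4%. Without control replicate 1, 23 members spanned more than 2-fold, of which mutant replicate 1 was lowest for 14 (60.9%) and mutant replicate 3 highest for 16 (69.6%). The same shares among all 362 genes were then 18.8% and 28.5%. The lowest and the highest pools were counted apart, so these counts need not fall on the same genes. With control replicate 1 left out, more mutant than control pools remained.

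**Figure D4:**
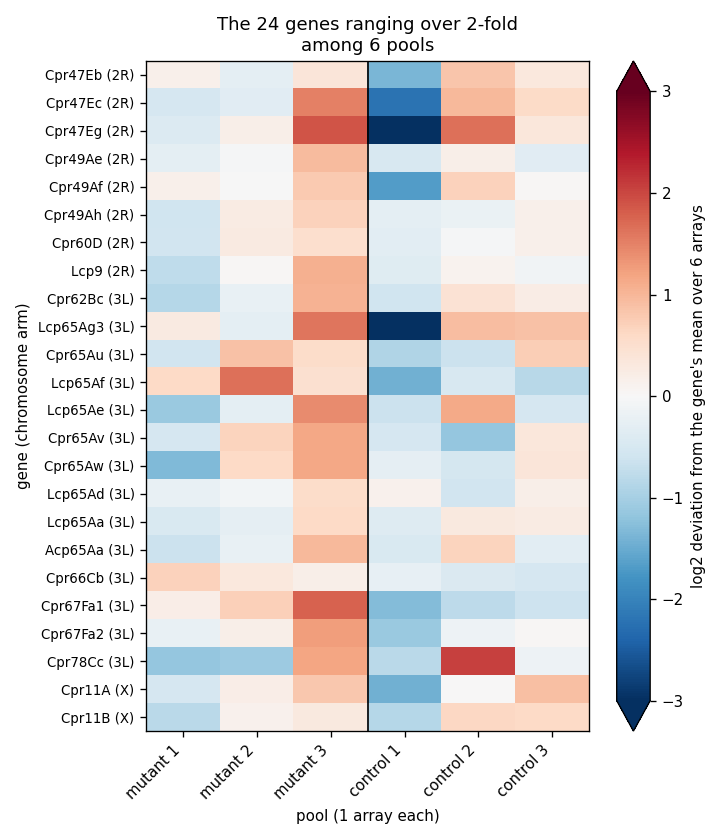
Deviation of each pool from the gene's mean over 6 arrays (colour, log2, with colours ending at 3 in either direction) for the 24 cuticle protein genes that spanned more than 2-fold, in gene order. Control replicate 1 is blue for most genes and mutant replicate 3 red for nearly all, while Lcp65Af is highest in mutant replicate 2 and Cpr78Cc in control replicate 2.

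The 65A cluster on 3L, which holds the Lcp65A larval cuticle genes and Acp65Aa, had 11 members, of which 10 were tested and 9 spanned more than 2-fold. Of the 10, 8 were highest in mutant replicate 3 and 4 lowest in control replicate 1. Lcp65Ag3 read 8.31, 7.75 and 9.65 in mutants and 4.65, 8.97 and 8.93 in controls. Control replicate 1 stood far below the other pools: the span over all 6 was 32.2-fold, and without that pool it was 3.75-fold. The difference of 1.06 had a 95% interval from -1.76 to 3.87 (limma adjusted p = 0.816) and turned to -0.38 without control replicate 1. A probeset shared by Lcp65Ag1 and Lcp65Ag2, copies of this gene by name, had the same low pool, at 6.07 against 7.39 to 8.61 elsewhere.

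Cpr65Au, Cpr65Av and Cpr65Aw, Rebers-Riddiford genes placed among the Lcp65A genes, formed another pattern. Cpr65Aw read 8.18, 10.11 and 10.67 in mutants and 9.23, 8.97 and 9.87 in controls, so mutant replicate 1 held the lowest value and mutant replicates 2 and 3 the highest. Cpr65Av read 9.15, 10.32 and 10.8 in mutants and 9.16, 8.48 and 9.98 in controls. Cpr65Au read 7.92, 9.36 and 9.03 in mutants and 7.58, 7.83 and 9.22 in controls. In all 3 genes control replicate 3 was the highest control pool. Their differences were 0.29, 0.88 and 0.56, with limma adjusted p-values of 0.907, 0.661 and 0.773.

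Lcp65Ae read 4.18, 4.99 and 6.69 in mutants and 4.63, 6.42 and 4.78 in controls, with mutant replicate 3 and control replicate 2 apart from the other 4 pools. Acp65Aa, named as an adult cuticle protein gene, was high in the same pools, at 7.57 and 7.27 against 5.95 to 6.37 in the others. Neither group stood apart, and the differences were 0.01 for Lcp65Ae and 0.06 for Acp65Aa (limma adjusted p = 0.997 and 0.976).

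Lcp65Ac was the brightest probeset of the cluster and its steadiest tested one by SD, with 10.28, 10.76 and 11.15 in mutants and 10.27, 10.37 and 10.52 in controls. Its difference of 0.35 did not pass (limma adjusted p = 0.677). Lcp65Aa read 8.4, 8.6 and 9.45 in mutants and 8.47, 9.14 and 9.1 in controls, and its second, dimmer probeset 7.07, 7.4 and 8.64 against 6.47, 8.33 and 8.15. Both probesets of Lcp65Aa were highest in mutant replicate 3, and the lowest pool differed, mutant replicate 1 on the first and control replicate 1 on the second. Lcp65Ad ranged from 4.79 to 5.91, and Cpr65Az lay below the filter with a mean of 3.5. A probeset shared by Cpr65Ax1 and Cpr65Ax2 read 7.16, 7.52 and 9.73 in mutants and 6.17, 10.8 and 8.4 in controls, a span of 24.9-fold with the highest value in control replicate 2.

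On the right arm of chromosome 2 (2R), the 47E cluster had 7 members, of which 5 were tested. Cpr47Eg had the widest span of all members, 47.1-fold, with 8.68, 9.26 and 10.97 in mutants and 5.42, 10.73 and 9.41 in controls. Without control replicate 1 its span was 4.9-fold. The difference of 1.12 had a 95% interval from -2.06 to 4.3 (limma adjusted p = 0.828) and turned to -0.43 without that pool.

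Cpr47Ec read 9.68, 9.84 and 11.68 in mutants and 7.95, 11.14 and 10.74 in controls. Cpr47Eb read 9.17, 8.74 and 9.39 against 7.64, 9.86 and 9.33. Control replicate 1 was again the lowest pool for both, and their spans went from 13.2-fold to 3.99-fold and from 4.65-fold to 2.17-fold without it. Their differences of 0.45 and 0.16 did not pass (limma adjusted p = 0.904 and 0.944), and became -0.54 and -0.49 without control replicate 1. Cpr47Ef, in the same cluster, was the steadiest member, with all 6 pools between 5.88 and 5.96, and a second Cpr47Ef probeset was below the filter. Cpr47Ee lay between 5.56 and 6.47, and Cpr47Ea and Cpr47Ed were below the filter, with means of 3.4 and 3.27.

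The 49A cluster, also on 2R, had 8 members, of which 7 were tested, and joined very steady and variable genes. Cpr49Ac was the brightest probeset of the family, with 14.06, 13.93 and 13.88 in mutants and 14.1, 13.96 and 13.91 in controls. Its difference was -0.03 with a 95% interval from -0.24 to 0.17 (limma adjusted p = 0.927). Values this high are near the upper end of the scale, where differences may be compressed, which was not tested.

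Cpr49Af read 11.51, 11.34 and 12.15 in mutants and 9.68, 12.03 and 11.38 in controls. Its 5.52-fold span rested on control replicate 1, without which it was 1.75-fold, and the difference of 0.63 (limma adjusted p = 0.764) became -0.04. Cpr49Ah (6.5 to 7.8) and Cpr49Ae (4.33 to 5.76) were highest in mutant replicate 3. Cpr49Ag lay between 9.06 and 9.56 with a difference of -0.13 (limma adjusted p = 0.774). Cpr49Ab and Cpr49Ad spanned less than 2-fold, and Cpr49Aa, with a mean of 3.63, was below the filter.

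Elsewhere on 2R, Lcp9, a larval cuticle protein gene, read 11.32, 12.12 and 13.15 in mutants and 11.73, 12.19 and 11.97 in controls. The 3 control pools lay within the span of the mutants, whose lowest and highest pools bounded all 6. The difference of 0.23 had a 95% interval from -0.78 to 1.25 (limma adjusted p = 0.892), and turned to -0.24 without mutant replicate 3. Cpr60D showed the same order of mutant pools, 10.51, 11.36 and 11.58, against 10.76, 11.04 and 11.22. Cpr56F (7.16 to 7.81, difference -0.25, limma adjusted p = 0.648) and Cpr51A (8.98 to 9.79) spanned less than 2-fold, and the pair at 50C was below the filter.

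On 3L outside 65A and 67F, Cpr78Cc had the widest span, with 6.19, 6.26 and 8.55 in mutants and 6.54, 9.4 and 7.19 in controls. Mutant replicate 3 and control replicate 2 were the high pools, as for Lcp65Ae and Acp65Aa. Its difference of -0.71 was the second lowest among the members, with a 95% interval from -2.83 to 1.41 (limma adjusted p = 0.836), and turned to 0.13 without control replicate 2. Cpr62Bc ranged from 6.12 in mutant replicate 1 to 8.03 in mutant replicate 3, with controls from 6.38 to 7.4. Cpr64Aa had 6.6, 6.86 and 6.46 in mutants and 7.34, 6.66 and 7.21 in controls, a difference of -0.43 that did not pass (limma adjusted p = 0.586).

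The other 3 genes of 64A, the 3 tested genes of 76B and the 2 of 65E spanned less than 2-fold, with differences from -0.13 for Cpr76Bc to 0.22 for Cpr65Ec. Cpr78E, one of the brightest probesets, lay between 13.29 and 13.68, with a difference of -0.0077 and a 95% interval from -0.3 to 0.28 (limma adjusted p = 0.988). Cpr66D and Cpr78Ca were similarly steady, with spans of 0.21 and 0.57 log2 units.

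Of the genes linked here to the pupal cuticle, Pcp was above the filter, and Edg78E and Edg84A were not. Pcp, the pupal cuticle protein gene, which lies within the span of Gart, a purine synthesis gene, read 12.61, 12.31 and 12.3 in mutants and 12.75, 12.51 and 12.38 in controls. The groups overlapped, and the difference of -0.14 (95% interval from -0.45 to 0.17) did not pass (limma adjusted p = 0.772). Edg78E and Edg84A, pupal cuticle genes known for their response to a pulse of ecdysone, were below the filter on all arrays, at 3.11 to 3.48 and 3.55 to 3.91. Whether they were transcribed cannot be read from these values, since the table holds no present or absent calls.

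The 84A cluster, a set of the class found in hard cuticle, had Ccp84Ae (5.85 to 6.35) and Ccp84Ac (5.65 to 5.98) above the filter and Ccp84Ag and Edg84A below it. The difference of Ccp84Ac was -0.11 (limma adjusted p = 0.784). A probeset shared by Ccp84Aa and Ccp84Ab was also below the filter on its mean, with mutant replicate 3 (4.93) and control replicate 2 (4.95) above the other pools (3.82 to 4.03). Those are the pools in which Lcp65Ae, Acp65Aa and Cpr78Cc were high. On the rest of the right arm of chromosome 3, Cpr97Eb had a difference of 0.31 (limma adjusted p = 0.617) and Cpr100A one of -0.21 (limma adjusted p = 0.787). None of the 7 tested genes of that arm spanned more than 2-fold.

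All 4 members on the X chromosome, which the roX RNAs act on in males, were tested and had overlapping groups. Cpr11A read 8.37, 9.07 and 9.67 in mutants and 7.41, 8.88 and 9.76 in controls. Cpr11B read 7.86, 8.8 and 8.97 against 7.82, 9.3 and 9.26. Both genes were low in mutant replicate 1 and control replicate 1. Their differences were 0.35 and -0.25 (limma adjusted p = 0.885 and 0.893). Cpr12A lay between 10.18 and 10.59 (difference 0.06, limma adjusted p = 0.918) and Cpr5C between 4.44 and 4.6. On 2L, the 4 tested genes, Pcp among them, spanned less than 2-fold.

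The 95% interval of the difference lay within 2-fold in either direction for 41 of the 62 genes (66.1%), beside 94.8% of all tested genes. For the other 21 members these arrays do not bound a difference of 2-fold. The 18 members below the filter had means from 2.81 to 4.38 and spanned at most 1.33-fold. The groups of Cpr49Aa (higher in mutants, means 3.74 and 3.52) and Cpr65Az (lower, 3.47 and 3.54) did not overlap, and neither was tested. Cpr57A was read by 2 probesets shared with the odorant-binding protein gene Obp57d, with differences of -0.18 and -0.65 that did not pass (limma adjusted p = 0.767 and 0.423).

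The other cuticle genes and the lists of tissue and stage genes gave no call apart from the lysozyme gene LysX in the gut list, which fell (-1.86, limma adjusted p = 0.00152). Of the 4 tested gut genes, 2 had a difference above 0 and 2 below. Another lysozyme gene, LysP, was higher in mutants without passing (1.21, groups not overlapping, limma adjusted p = 0.0896). Of 31 tested genes for chitin synthesis, breakdown and cuticle assembly none was called with limma (1 at an unadjusted p under 0.05), and their median difference was -0.015. Those with the smallest p were Idgf3 (0.32), the chitinase-like gene Cht9 (-0.58) and the chitinase gene Cht5 (-0.28). Of 16 tested Tweedle genes, another family of cuticle proteins, none was called (0 at an unadjusted p under 0.05), with a median of -0.045. Of 9 tanning genes none was called (2 at an unadjusted p under 0.05), and PPO2 had the smallest p (-0.98, limma adjusted p = 0.282). Of 29 genes of late larval and ecdysone timing none was called (2 at an unadjusted p under 0.05), with a median of -0.019.

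Among 7 tested epidermis markers none was called (2 at an unadjusted p under 0.05), with 3 differences above 0 and 4 below. The epidermal transcription factor gene grh read 8.56 to 8.75 in mutants and 9.07 to 9.38 in controls (difference -0.60, groups not overlapping, limma adjusted p = 0.094). Alp4, the other gene with an unadjusted p under 0.05, was higher in mutants (0.34, groups overlapping, limma adjusted p = 0.531). Tb, sha and ple, of the same list, were below the filter. The median deviation of the epidermis list was between -0.043 and 0.199 over the 6 pools and highest in control replicate 1, the pool in which the cuticle protein genes had their lowest median, -0.203.

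The muscle markers moved with the cuticle protein genes across pools. The 62 cuticle protein genes had median deviations from -0.203 in control replicate 1 to 0.219 in mutant replicate 3. The 11 muscle genes, all above the filter, had -0.409 and 0.374 in the same pools, and their mean level ran from 11.16 to 11.72 in controls and from 11.54 to 12.02 in mutants. The difference was above 0 for 11 of 11 muscle genes, with a median of 0.175. Of them none was called with limma (0 at an unadjusted p under 0.05), and their part in the result was not tested. The median of the timing list did not move that way, with 0.144 in control replicate 1 and -0.017 in mutant replicate 3. The salivary gland genes ng1, ng2 and ng3 were lowest in control replicate 1 as well: ng2 read 6.82 there against 8.95 to 9.59 in the other pools, ng1 9.43 against 11.17 to 11.73 and ng3 11.46 against 12.1 to 12.61. The 6 Sgs genes of the same list were not low in that pool, and their part and that of the ng genes in the result was not tested. Of the 29 tested timing genes, 6 spanned more than 2-fold. Among them, Eig71Ed ranged from 4.33 to 9.29 and was highest in control replicate 2 and low in both replicates numbered 3. Eig71Ea, Eig71Ef and Eig71Eg spanned 10-fold, 10.9-fold and 11.4-fold, each highest in control replicate 2 and lowest in control replicate 3. The part of larval timing in the result was not tested. The 3' minus 5' difference of the actin control probesets, a sign of RNA integrity, was 0.770, 0.940 and 0.902 in mutants and 0.716, 0.704 and 0.744 in controls. The groups did not overlap, with means of 0.871 ± 0.090 and 0.721 ± 0.021 (SD, n = 3; exact two-sided permutation p = 0.1, the smallest possible). The same difference for GAPDH was 1.38 ± 0.13 in mutants and 1.38 ± 0.033 in controls (SD, n = 3; exact two-sided permutation p = 1), and it was lowest in mutant replicate 3, at 1.23. The part of RNA integrity in the result was not tested.

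**Figure D5:**
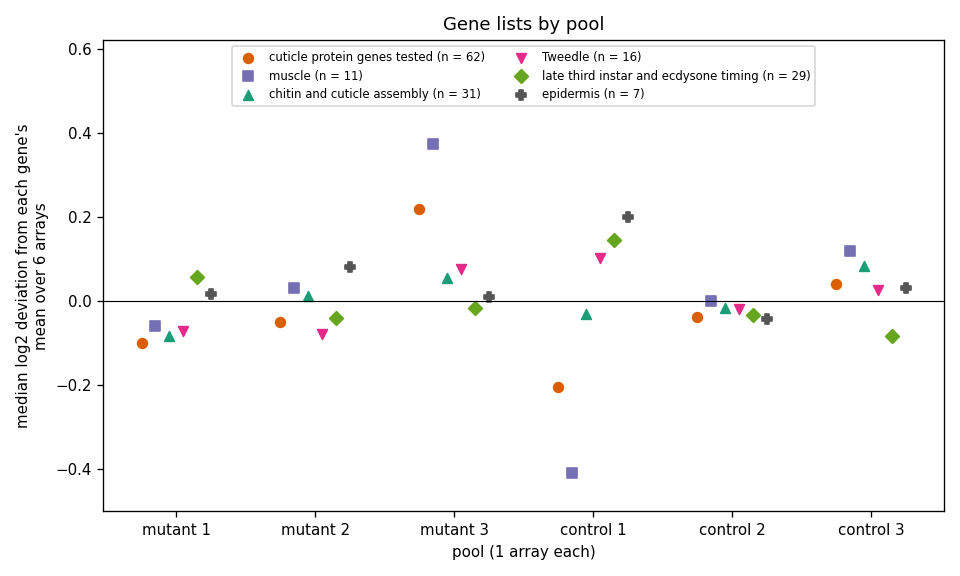
Median log2 deviation from each gene's mean over 6 arrays (vertical axis) for the tested cuticle protein genes and 5 gene lists in each pool (horizontal axis). Cuticle protein and muscle genes are lowest in control replicate 1 and highest in mutant replicate 3, and the epidermis and timing lists are highest in control replicate 1.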

How the data were processed

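The table the authors deposited holds 1 log2 value for each probeset on each array. These come from RMA (background correction, normalization and summary of the probes), according to the series' design text and, per the submitters' processing notes, RMA with no stated version. Filtering by present or absent calls is mentioned in that text too, but the table shows no trace of it. Normalization equalises the arrays, so a shift common to most transcripts is lost. Independent RNA preparations of each genotype, per the same text, are the replicates, and 3 against 3 arrays limits the precision.

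Before testing, 183 control probesets were dropped, and then the dimmest 40% of the rest by mean. The remaining 11262 were tested with limma 3.58.1 (R 4.3.3) by lmFit and eBayes, as two-sided tests, and p-values were adjusted by Benjamini-Hochberg over all of them. Figures used matplotlib 3.10.9 in Python 3.11.15. Names came from the platform annotation, and chromosome arm and gene order from RefSeq's table (Release 6 plus ISO1 MT); all members matched. Ccp84A symbols were counted whatever letter follows. If only a digit or capital may follow, 77 genes remain.

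The fit was tested on simulated data made from these arrays' means and SDs, with 11262 probesets tested. Of 65 log2 changes of 0.5, 36.9% were called, of 66 changes of 1, 71.2%, and of 61 changes of 2, 95.1%. There were 7 false calls. The changed probesets were drawn from all tested ones. The members had a larger median SD (0.296, beside 0.127 over all tested genes), so these shares do not hold for the members. The members and lists were chosen with earlier results of these data known. Named genes are those called, the 10 with the smallest p, the 10 largest differences in each direction, the 10 brightest, the 10 with the largest SD, Edg78E, Edg84A, Pcp and Acp65Aa; others were added after their values were seen. Genes with the smallest p of their list are named for the chitin and cuticle assembly, tanning, epidermis and gut lists only. The fat body, salivary gland, trachea, gut, hemocyte and neuron lists had median differences of 0.073, 0.066, -0.16, -0.15, -0.13 and -0.098 over 7, 9, 5, 4, 5 and 4 tested genes.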

Additional observations from a re-analysis of the deposited data

How the results depend on the processing

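The count of 1 called cuticle protein gene of 62 tested became 5 with array weights and 0 under the replicate block. It ran from 0 to 2 when 1 array was left out, and the cause was not tested. The count of 62 called probesets of 11262 tested became 27 with the lowest 60% left out, where 7508 were tested. It became 232 with array weights and 28 under the replicate block, and ran from 12 to 84 with 1 array left out. Of the 80 genes, 32 passed that stricter filter. Same-numbered mutant and control samples correlated in their deviations at 0.0529, -0.189 and 0.323. Samples of different numbers were not compared in this way, so whether the numbers pair the samples was not tested. The median difference of the members, 0.047, was -0.032 with array weights and 0.15 with the lowest 60% left out, over 32 genes. Without each array it ran from -0.024 to 0.082 and their median SD from 0.236 to 0.291. The span of members over 2-fold was checked without each array after seeing the data.

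Array weights turned the sign of 11 differences that were not called: Cpr47Eg (-0.33), Lcp65Ag3 (-0.53), Cpr49Af (-0.034), Cpr49Ac (0.015), Cpr78E (0.13), Lcp9 (-0.029), Cpr47Ec (-0.70), Lcp65Ae (-0.46), Cpr11A (-0.30), Cpr47Eb (-0.49) and Acp65Aa (-0.28); the cause was not tested. Centring on array medians turned Cpr78E (0.0135). With 1 array left out, signs turned within these ranges: Acp65Aa -0.41 to 0.41, Cpr11A -0.28 to 0.89, Cpr11B -0.74 to 0.091, Cpr12A -0.019 to 0.19, Cpr47Eb -0.49 to 0.61, Cpr47Ec -0.54 to 1.05, Cpr47Eg -0.43 to 2.23, Cpr49Ac -0.082 to 0.021, Cpr49Af -0.042 to 1.14, Cpr60D -0.072 to 0.46, Cpr65Aw -0.21 to 1.03, Cpr78Cc -1.48 to 0.13, Cpr78E -0.073 to 0.095, Lcp65Ae -0.69 to 0.58, Lcp65Ag3 -0.38 to 1.78 and Lcp9 -0.24 to 0.68.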
